A study of Mus musculus with 8 samples.

Results

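Initiation and elongation factors are the proteins that load messenger RNA onto ribosomes and carry the ribosome along it. Their genes were taken as every protein-coding row of the table whose symbol starts with Eif or Eef followed by a digit, which gave 67 of 30587 genes. The set holds the factors themselves, the inhibitors of the cap-binding protein eIF4E (Eif4ebp genes), the kinases of eIF2 (Eif2ak genes) and the enzymes that modify the elongation factors. Whole kidneys were compared at 28 days of age between 4 wild-type libraries of the strain C57BL/6 (WT 1 to 4) and 4 libraries labelled Tsc1f/f/Aqp2 Cre (Tsc1-KO 5 to 8), in which both Tsc1 alleles are floxed and the Cre acts in principal cells of the collecting duct. The labels name no strain for the Tsc1-KO mice, so the deletion, the Cre and any difference in strain cannot be told apart.

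The complex that Tsc1 encodes a part of holds back the kinase mTORC1, which is known for raising translation. mTORC1 does so largely by phosphorylation: it frees eIF4E from the 4E-BP inhibitors and acts, through S6 kinase, on eIF4B and on the kinase of eEF2. Poly(A) RNA-seq measures none of these steps, and what follows is on transcript level alone. eIF2 carries the initiator tRNA to the small ribosomal subunit, eIF2B recharges eIF2 with GTP, eIF3 is the scaffold of the initiation complex, eIF4F (eIF4E, eIF4G and the helicase eIF4A) binds the cap, and eEF1A and eEF2 bring in aminoacyl-tRNA and move the ribosome on.

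The libraries held 26453073 to 31226739 counts, and no 2 of them agreed within sampling noise (chi-square per degree of freedom of 22.3 or more). Levels are given as TMM-scaled CPM, read counts relative to the scaled library total. Tsc1 itself averaged 51.4 ± 5.84 CPM over the 4 WT libraries and 49.7 ± 13.1 CPM over the 4 Tsc1-KO libraries (± SD), so whole-kidney RNA did not separate the genotypes by this gene. The kidney markers Umod, Slc34a1, Aqp2 and Nphs1 were detected in every library. All 9 proximal tubule markers had negative log2 changes and 4 fell (Slc34a1, Miox, Fbp1 and Hnf4a), with a sum of 14922 to 16351 CPM in WT and 8638 to 12553 CPM in Tsc1-KO. These cells make up much of the kidney, and their part in the results for the factors was not tested. Tsc1-KO 7 lay nearest to WT 4 (r = 0.985 over tested genes), whereas the other 7 libraries each lay nearest to a library of their own genotype. WT 3, WT 4, Tsc1-KO 7 and Tsc1-KO 8 held 2727 to 4000 reads of the Y-linked genes Ddx3y, Uty and Kdm5d, and the other 4 libraries 0 to 6.

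Most of the machinery did not differ between the genotypes beyond the spread of the libraries. All 67 genes had enough counts to be tested, and 4 passed the edgeR quasi-likelihood test at an adjusted p under 0.05 over all 18048 genes tested. Eef1a2, Eif3j1 and Eif2ak2 rose and Eif3j2 fell. The 3 higher genes are read against 3.50% of all tested genes called higher, and the 1 lower gene against 1.16% called lower. In all, 5.97% of the genes of the set were called, near the 4.67% of all genes. The groups of 4 libraries did not overlap for 9 genes, or 13.4% of the set, against 11.5% of all genes. In bulk kidney RNA, fewer cells of a type and less RNA per cell cannot be told apart.

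**Figure D1:**
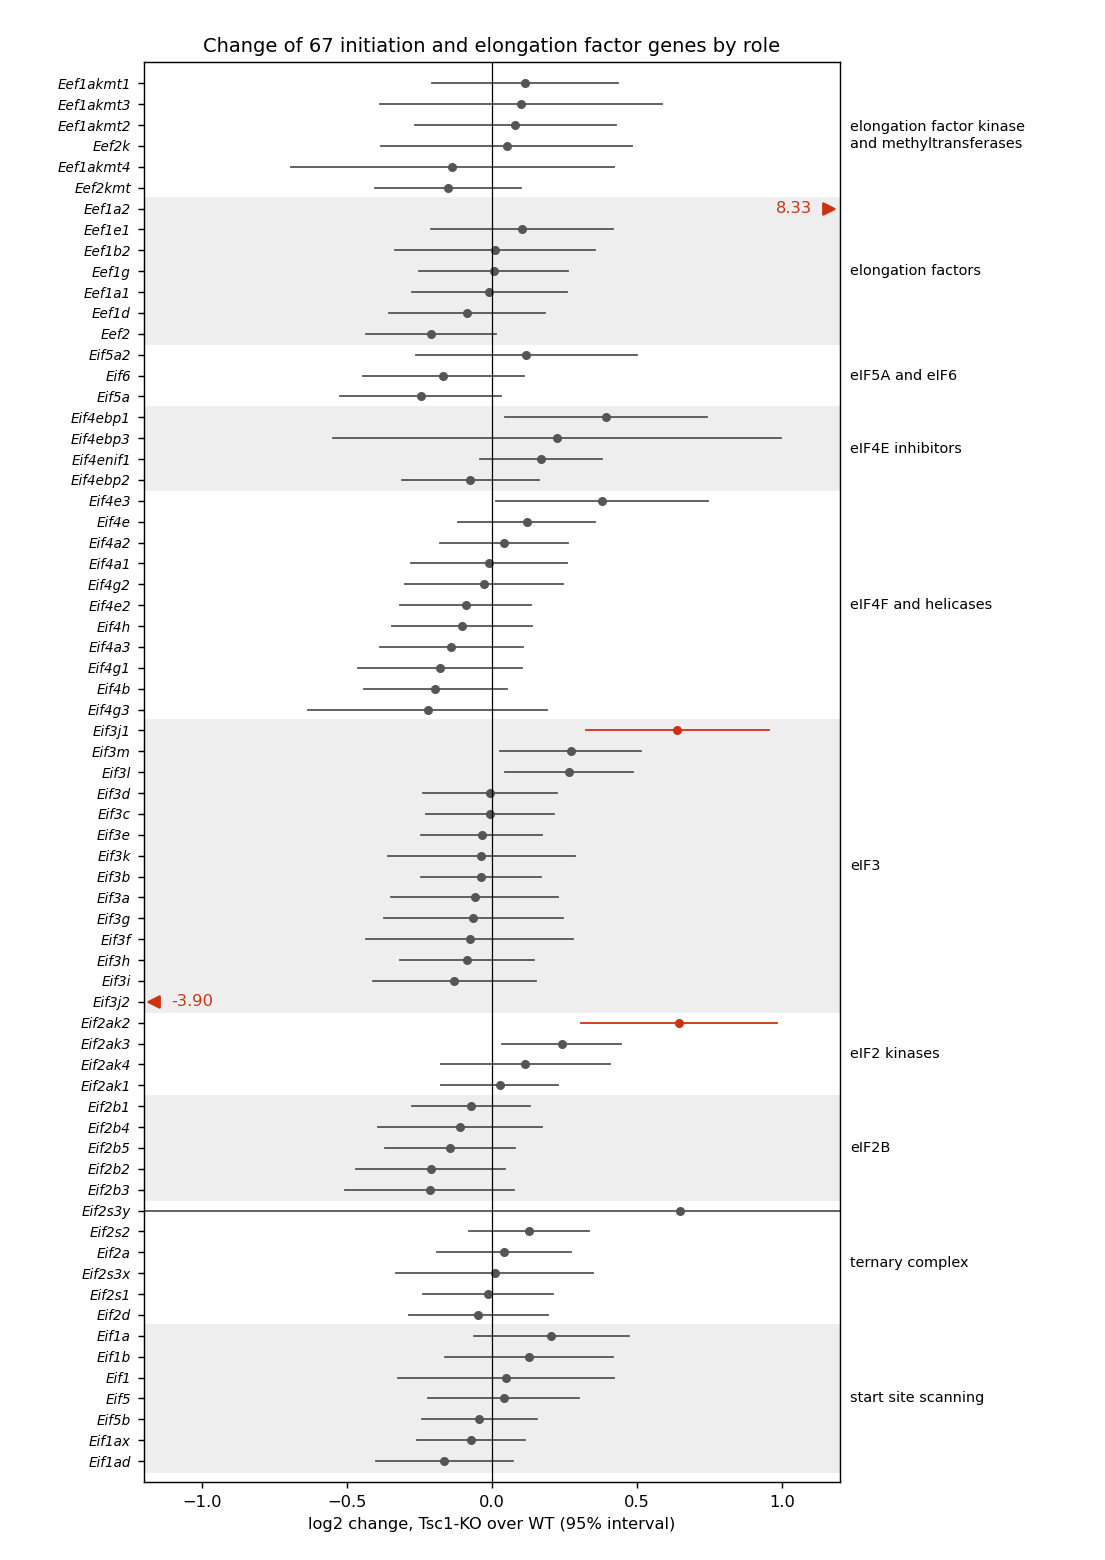
Log2 change of Tsc1-KO over WT for each of the 67 genes, ordered by role, with the 95% interval of the edgeR fit as a line. Red marks the 4 genes past the test, arrowheads mark Eef1a2 (8.33) and Eif3j2 (-3.90), which lie outside the axis, and the interval of Eif2s3y runs past both ends of it. Of the 67 changes, 60 lie within 0.3 of 0.

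The size of the changes was small. The median log2 change was -0.011 over the 67 genes and 0.0049 over all tested genes, with 30 genes above 0 and 37 below. The absolute change was under 0.3 for 60 of the 67 genes, or 89.6%, against 65.1% of all tested genes. Of tested genes at or above the 5th percentile of the set in mean CPM, 76.7% were under 0.3. This cut is a lower bound only, so these genes are not otherwise matched to the set in level. Their median SE was 0.14, against 0.12 in the set, and the part of level in the difference was not tested. The 95% interval of the change lay within 0.5 of 0 on either side for 53 of the 67 (79.1%), against 36.1% of all tested genes and 55.5% of the 11579 tested genes at or above the 5th percentile of the set in mean CPM. For these 53 genes a change of more than 0.5 on the log2 scale lay outside the interval. Beyond the 4 called genes, 5 more had an unadjusted p under 0.05 and failed the adjustment (Eif3l, Eif3m, Eif2ak3, Eif4ebp1 and Eif4e3), and all 5 had positive log2 changes. They are 7.46% of the set, where 12.9% of all tested genes (1311 higher and 1017 lower) were of this kind. Exons of 29 of the 67 genes share bases with another annotated gene, on the opposite strand for 19, and without a stated strand setting such reads cannot be assigned.

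Per length, the set spanned more than 3 orders of magnitude in either genotype. Eef1a1 was highest, at 1499 FPKM (fragments scaled by gene length and library total) in WT, followed by Eef2 at 638 FPKM and Eif5a at 179 FPKM. Eef1a2 was lowest in WT at 0.0044 FPKM, and the next lowest was Eif4ebp3 at 1.36 FPKM. Together the 67 genes took 1.29% ± 0.033 (SD, n = 4) of all counts in WT and 1.32% ± 0.061 (SD, n = 4) in Tsc1-KO, and Eef1a1 alone took 24.8% to 31.04% of these.

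**Figure D2:**
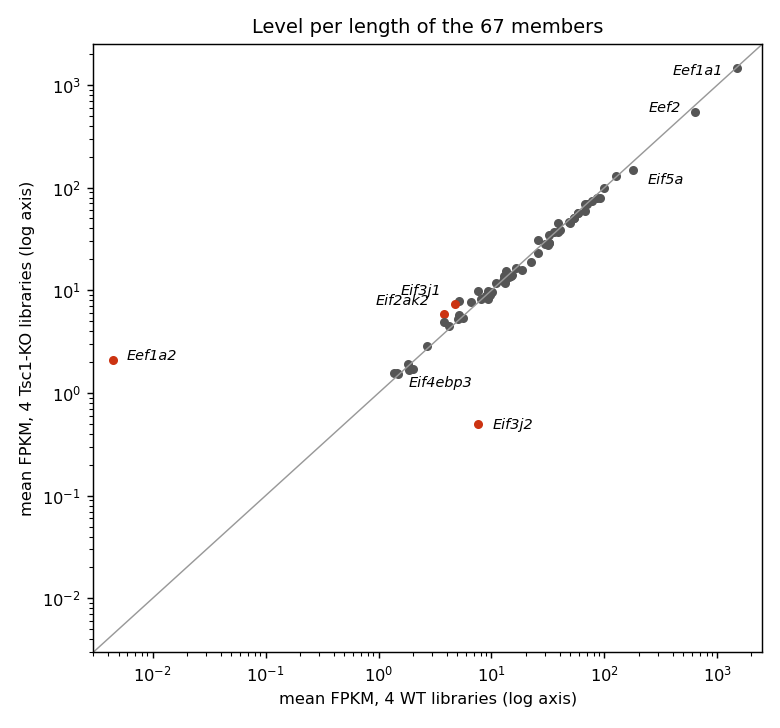
Mean FPKM over the 4 WT libraries (x axis) against mean FPKM over the 4 Tsc1-KO libraries (y axis) for the 67 genes, both on log axes, with the line of equal level. Red points passed the test. Eef1a2 (0.0044 against 2.09 FPKM) and Eif3j2 (7.58 against 0.501 FPKM) stand away from the line.

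The elongation step held the gene with the largest change. The mouse has alternative eEF1A proteins that do the same work: eEF1A1 is made in most tissues, and eEF1A2 is known from neurons and from heart and skeletal muscle. The genes differ enough for reads to be told apart, as their coding sequences were identical at 80.8% of 1383 aligned bases and shared no stretch of 50 bases. Their first 60 coding bases are shown from GENCODE transcripts on GRCm38, with the 11 bases that differ between them in capitals.
Eef1a1: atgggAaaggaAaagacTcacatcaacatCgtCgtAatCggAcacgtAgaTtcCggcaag
Eef1a2: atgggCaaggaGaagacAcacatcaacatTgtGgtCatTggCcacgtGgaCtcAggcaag

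Eef1a2 (ENSMUSG00000016349, chromosome 2, 181147653 to 181157014, minus strand) gave 0, 0, 1 and 0 reads in WT 1 to 4 and 30, 185, 31 and 298 reads in Tsc1-KO 5 to 8. It was thus all but absent from WT kidneys and present in every Tsc1-KO kidney, with Tsc1-KO 6 and Tsc1-KO 8 well above the other two. The levels in Tsc1-KO were 1.002, 6.15, 0.974 and 9.48 CPM. The ratio of the pooled reads, 544 against 1, was 473 with an exact 95% counting interval of 84.6 to 18724, which covers counting error only. The edgeR adjusted p was 0.00736. It was 0.112 without WT 3, the library with the single read, and the call held without any other 1 library.

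Even where it was highest, Eef1a2 added little to the eEF1A transcripts. The FPKM ratio of Eef1a2 to Eef1a1 was 0.000318, 0.00203, 0.000351 and 0.00274 in Tsc1-KO 5 to 8. Eef1a1 (chromosome 9, 78478449 to 78489151, minus strand) stood at 4151, 4031, 3254 and 3498 CPM in WT 1 to 4 and at 3766, 3628, 3319 and 4141 CPM in Tsc1-KO 5 to 8. The groups overlapped throughout, and the log2 change was -0.0077 (95% interval -0.28 to 0.26, edgeR adjusted p = 0.986). The 2 genes summed gave a log2 change of -0.0060 (SE 0.12).

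Genes of tissues known for Eef1a2 were looked at beside it. The 4 skeletal muscle markers in the table (Acta1, Ckm, Mylpf and Tnnt3) summed to 0.777 to 1.92 CPM in WT and 1.01 to 2.33 CPM in Tsc1-KO, and Ckm, the muscle creatine kinase, had at most 2 reads in a library. The 5 neuronal markers (Snap25, Syt1, Nefl, Stmn2 and Tubb3) summed to 1.11 to 2.91 CPM in WT and to 1.64, 13.9, 4.46 and 2.10 CPM in Tsc1-KO 5 to 8. Tsc1-KO 6 and Tsc1-KO 7 were above the WT range of the neuronal sum, and Tsc1-KO 5 and Tsc1-KO 8 were within it. Tubb3 alone was higher in every Tsc1-KO library (0.434 to 4.98 CPM) than in any WT library (0 to 0.388 CPM), with an edgeR adjusted p of 0.114. All 5 A-type intercalated cell markers rose, with a sum of 229 to 325 CPM in WT and 522 to 1029 CPM in Tsc1-KO, and the part of neuronal or intercalated cells in the Eef1a2 result was not tested.

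**Figure D3:**
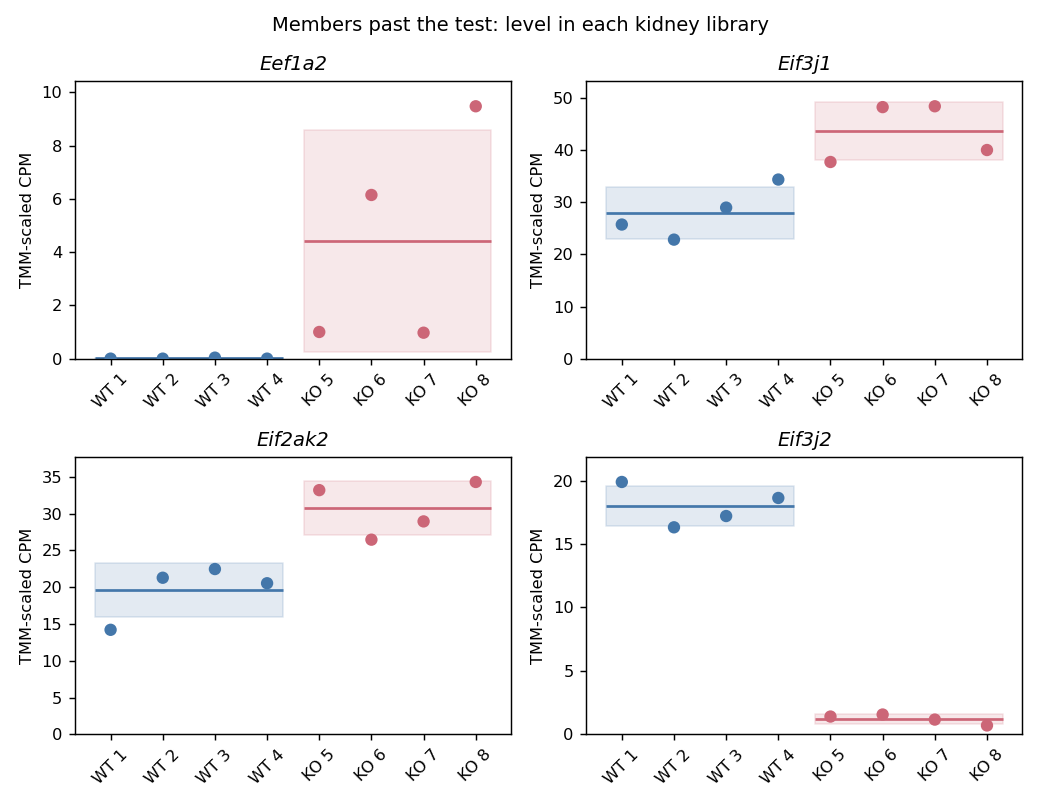
TMM-scaled CPM (y axis, from 0) of the 4 genes past the test in each library (x axis), with the group mean as a line and 1 SD (n = 4) as a band. Eef1a2 has 0 to 0.037 CPM in WT and 0.974 to 9.48 CPM in Tsc1-KO, and in each panel all Tsc1-KO libraries lie on one side of all WT libraries.

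The other elongation factors did not pass. Eef2, the translocase, stood at 2123, 2133, 2199 and 2017 CPM in WT 1 to 4 and at 1861, 1651, 1860 and 1947 CPM in Tsc1-KO 5 to 8. All Tsc1-KO libraries lay below all WT libraries, but the log2 change of -0.21 was not significant (SE 0.10, 95% interval -0.43 to 0.013, edgeR adjusted p = 0.321). It was the lowest value among the 7 genes grouped here as elongation factors. Eef1b2, Eef1d and Eef1g, which recharge eEF1A with GTP, and Eef1e1 ranged from -0.084 to 0.10. Among Eef2k and the 5 methyltransferases of eEF1A and eEF2, the change ran from -0.15 (Eef2kmt) to 0.12 (Eef1akmt1).

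Eef2k, the kinase that shuts down eEF2, was level in 7 libraries and high in 1. Its values were 10.6, 11.98, 10.3 and 10.96 CPM in WT 1 to 4 and 9.65, 16.7, 9.52 and 9.54 CPM in Tsc1-KO 5 to 8. The Tsc1-KO 6 library stood above all others, and the rest of the Tsc1-KO group lay below every WT library. The log2 change was 0.051 (SE 0.20, edgeR adjusted p = 0.938), and -0.20 without Tsc1-KO 6 (adjusted p = 0.553).

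Within eIF3, the 2 genes for the loosely bound subunit eIF3j moved in opposite directions. Eif3j1 (ENSMUSG00000027236, chromosome 2, 122028546 to 122056598, plus strand) had 25.7, 22.8, 29.0 and 34.4 CPM in WT 1 to 4 and 37.7, 48.3, 48.4 and 40.0 CPM in Tsc1-KO 5 to 8. Eif3j2 (ENSMUSG00000043424, chromosome 18, 43475418 to 43477796, minus strand) had 19.9, 16.3, 17.2 and 18.6 CPM in WT 1 to 4 and 1.40, 1.56, 1.16 and 0.700 CPM in Tsc1-KO 5 to 8. Every Tsc1-KO library was above every WT library for the first gene and below every one for the second.

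The fold changes were unequal. Eif3j1 was 1.56-fold higher in Tsc1-KO (log2 change 0.64, SE 0.14, edgeR adjusted p = 0.0283). Eif3j2 was 14.9-fold lower (log2 change -3.90, SE 0.23, edgeR adjusted p = 5.98e-06), the smallest p of the 67 genes. Leaving out any 1 library kept the Eif3j2 call, with log2 changes of -4.05 to -3.71. The Eif3j1 call was lost without WT 1, WT 2, WT 3, Tsc1-KO 6 or Tsc1-KO 8, with an adjusted p of up to 0.0809.

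The 2 genes cannot be read apart with confidence, because they are near-identical. Over the 783 aligned coding bases no base differed. Of all stretches of 50 bases, 90.8% of those in the Eif3j2 transcript occurred in an Eif3j1 transcript, and 39.4% of those in Eif3j1 occurred in Eif3j2. How reads that match both were counted is not given in the sources used here. Eif3j2 took 35.2% to 43.6% of the counts of the pair in WT and 1.72% to 3.58% in Tsc1-KO.

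Added together, the counts of the pair showed no detectable change. The sum was 45.6, 39.1, 46.2 and 53.0 CPM in WT 1 to 4 and 39.1, 49.8, 49.6 and 40.7 CPM in Tsc1-KO 5 to 8. The groups overlapped, and the summed log2 change was -0.037 (SE 0.13, edgeR adjusted p = 0.928), in a fit added after seeing the data. The part of Eif3j2 in the pair's counts thus fell while no change in their sum was detectable. How reads that match both genes were counted is not known, so this sum may not be the full total of the pair. Among tested neighbours within 1 Mb, 9 of 34 rose around Eif3j1, or 26.5% against the 3.50% of all genes, and 1 fell (the 10 called include B2m, Ckmt1, Gatm and Mfap1a). Around Eif3j2, 1 of 10 fell (Gm3650) and none rose at the edgeR threshold. The part of either neighbourhood in the results of the pair was not tested. Spg11, whose exons overlap 1107 of the 5830 exonic bases of Eif3j1 on the other strand, was level (log2 change 0.091, SE 0.22, edgeR adjusted p = 0.888).

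**Figure D4:**
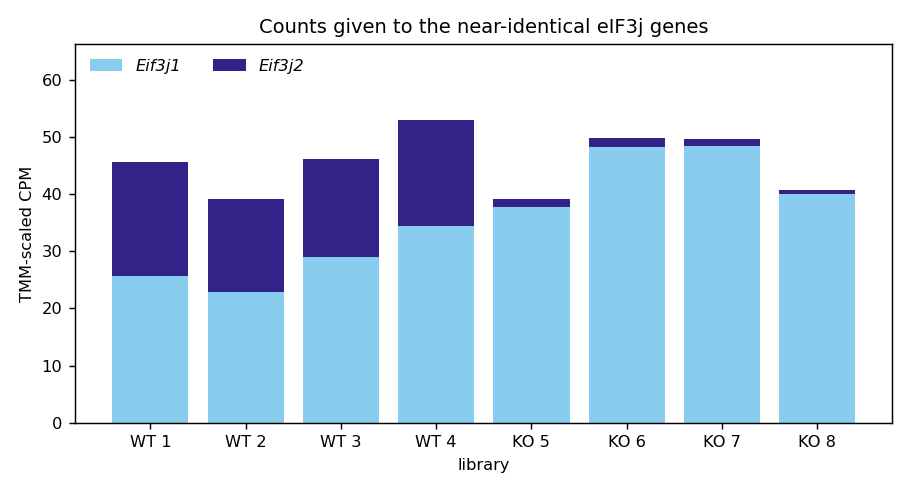
TMM-scaled CPM of Eif3j1 (light) and Eif3j2 (dark) stacked for each library, from 0. The dark share is 35.2% to 43.6% of the pair's counts in WT and 1.72% to 3.58% in Tsc1-KO, while the height of the whole bar runs from 39.1 to 53.0 CPM in WT and from 39.1 to 49.8 CPM in Tsc1-KO.

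The other 12 eIF3 genes did not pass. Of these, 10 had changes between -0.13 (Eif3i) and -0.0057 (Eif3d). Eif3l stood at 152, 139, 145 and 124 CPM in WT 1 to 4 and 170, 180, 161 and 163 CPM in Tsc1-KO 5 to 8. Eif3m stood at 69.6, 70.8, 61.9 and 66.4 CPM in WT 1 to 4 and 74.2, 85.0, 71.2 and 93.9 CPM in Tsc1-KO 5 to 8. Neither gene's groups overlapped, yet the log2 changes of 0.27 and 0.27 missed the edgeR threshold (adjusted p = 0.188 and 0.229). Both genes encode subunits of the structural core of the complex, but other subunits of that core were among the 10 genes with changes below 0. Per length, eIF3 subunits ran from 4.80 FPKM (Eif3j1) to 85.0 FPKM (Eif3h) in WT, and Eif3h was again highest in Tsc1-KO at 79.0 FPKM.

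The 4 kinases of this group shut down initiation by phosphorylating eIF2, each in answer to a different stress, and only the one that senses double-stranded RNA passed the test. Eif2ak2 encodes this kinase, PKR, and lies at chromosome 17, 78852564 to 78882573, minus strand (ENSMUSG00000024079). It had 14.2, 21.3, 22.5 and 20.5 CPM in WT 1 to 4 and 33.2, 26.5, 28.9 and 34.3 CPM in Tsc1-KO 5 to 8. All Tsc1-KO libraries lay above all WT libraries, with WT 1 the lowest. The rise was 1.57-fold (log2 change 0.65, SE 0.15, edgeR adjusted p = 0.0371). The call was the least steady of the 4, as it was held only without Tsc1-KO 6 or without Tsc1-KO 7, and the adjusted p reached 0.114 when another library was left out. That Eif2ak2 differed from the other kinases in its response was not tested.

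PKR is known as the product of an interferon-stimulated gene, and its promoter was searched for the core of the interferon-stimulated response element, GAAANNGAAA, on both strands. The RefSeq promoters (GRCm38.p6) run from 250 bases before to 50 after the start, and 52 of the 67 genes were matched to one by symbol. Eif2ak2 held the motif 19 bases after its annotated start. The stretch is at chr17:78882540-78882569, minus strand, with the motif in capitals.
Eif2ak2: ggcggagtccgccggGAAAACGAAAcagaa

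The motif was also present in the promoters of Eif2s1, Eif2s3x and Eif3a, none of which passed the test, and in 3.44% of all 32851 promoters. A match describes these letters only. Myeloid markers moved beside Eif2ak2: 4 of 7 rose (Ptprc, Lyz2, Itgam and Ccr2), and the sum of the 7 was 99.7 to 116 CPM in WT and 122 to 156 CPM in Tsc1-KO. Csf1r, a receptor found on macrophages, made up most of this sum in WT, with a mean of 74.1 CPM. It did not pass (log2 change -0.15, edgeR adjusted p = 0.606). Cd68 (log2 change 0.94, edgeR adjusted p = 0.0688) and Adgre1 (0.37, edgeR adjusted p = 0.393) did not pass either. The part of myeloid cells in the Eif2ak2 result was not tested.

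The kinase of the endoplasmic reticulum, PERK (Eif2ak3), stood at 38.6, 38.6, 43.0 and 37.7 CPM in WT 1 to 4 and at 46.8, 43.9, 46.9 and 49.0 CPM in Tsc1-KO 5 to 8. Its groups did not overlap, but the log2 change of 0.24 (SE 0.093) did not pass (edgeR adjusted p = 0.201). The amino acid sensor GCN2 (Eif2ak4) had 18.04, 22.8, 18.6 and 20.6 CPM in WT 1 to 4 and 25.8, 18.8, 19.95 and 22.2 CPM in Tsc1-KO 5 to 8, with overlapping groups (log2 change 0.12, SE 0.13, edgeR adjusted p = 0.733). The heme-regulated kinase HRI (Eif2ak1) was the most even of the 4, at 72.5, 71.1, 72.4 and 75.2 CPM in WT 1 to 4 and 74.9, 73.9, 80.4 and 67.6 CPM in Tsc1-KO 5 to 8 (log2 change 0.028, SE 0.092, edgeR adjusted p = 0.927). Per length, Eif2ak1 was the highest of the kinases in both genotypes, at 12.9 FPKM in each.

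A list of 12 genes of the amino acid response, Atf4 among them, was read beside the kinases. Of these, 8 rose, against 3.50% of all tested genes, and none fell at the edgeR threshold. Whether the kinases had a part in this was not tested. Atf4 had a log2 change of 0.23 (SE 0.12, edgeR adjusted p = 0.348).

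eIF2 itself was even. Eif2s1 and Eif2s2, its alpha and beta subunits, had log2 changes of -0.011 and 0.13. The gamma subunit has an X-linked and a Y-linked gene, whose coding sequences were identical at 86.3% of 1416 bases and shared no stretch of 50 bases. The first 60 coding bases, from GENCODE transcripts on GRCm38, are shown with the 13 differing bases in capitals.
Eif2s3x: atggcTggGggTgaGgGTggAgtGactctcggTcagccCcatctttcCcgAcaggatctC
Eif2s3y: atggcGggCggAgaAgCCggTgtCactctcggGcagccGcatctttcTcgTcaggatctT

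Whether Eif2s3y was present above 0.067 CPM followed the Y-linked reads of a library and not its genotype. It had 0, 0, 45.1 and 40.0 CPM in WT 1 to 4 and 0.067, 0, 62.9 and 70.6 CPM in Tsc1-KO 5 to 8. Both genotypes held 2 libraries with it and 2 without, and its log2 change of 0.65 carried a 95% interval of -4.74 to 6.04 (edgeR adjusted p = 0.930). That fit ignored the Y-linked reads. Among libraries with the gene, both Tsc1-KO values were above both WT values. With a Y-linked term its log2 change was 0.67 (edgeR adjusted p = 0.0852). In the libraries with Y-linked reads alone it was 0.65 (edgeR adjusted p = 0.200), with 2 libraries a genotype. Eif2s3x had 66.6, 66.6, 56.3 and 62.6 CPM in WT 1 to 4 and 84.7, 62.0, 58.8 and 48.3 CPM in Tsc1-KO 5 to 8. Its genotypes overlapped (log2 change 0.0099, SE 0.16, edgeR adjusted p = 0.986), and its mean was 56.5 CPM in the 4 libraries with Y-linked reads and 69.97 CPM in the 4 without. The sum of both genes was 101 and 103 CPM in WT 3 and WT 4 and 122 and 119 CPM in Tsc1-KO 7 and Tsc1-KO 8. In the libraries without the Y-linked gene the sum was 62.0 to 84.7 CPM.

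**Figure D5:**
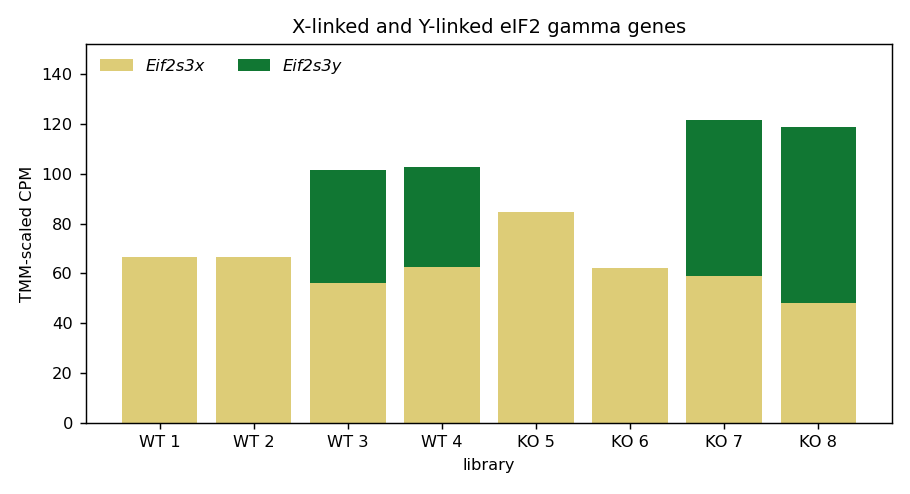
TMM-scaled CPM of Eif2s3x (light) and Eif2s3y (dark) stacked for each library, from 0. The dark part appears in WT 3, WT 4, Tsc1-KO 7 and Tsc1-KO 8 (40.0 to 70.6 CPM) and is at most 0.067 CPM in the other 4 libraries.

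The 5 subunits of eIF2B, which recharges eIF2, all leaned lower, from -0.21 (Eif2b3) to -0.071 (Eif2b1), and none passed the test. The remaining genes of the eIF2 group, Eif2a and Eif2d, had log2 changes of 0.041 and -0.046. The 7 genes grouped here under start site scanning were Eif1, Eif1a, Eif1ad, Eif1ax, Eif1b, Eif5 and Eif5b. Their log2 changes ran from -0.16 (Eif1ad) to 0.21 (Eif1a), and the 95% interval of each lay within 0.5 of 0.

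The 11 genes grouped here as eIF4F and helicases held no called gene. The log2 changes ran from -0.22 (Eif4g3, a scaffold) to 0.38 (Eif4e3, a divergent cap-binding protein), with 8 of the 11 below 0. Eif4e3 stood at 8.59, 12.3, 8.81 and 8.38 CPM in WT 1 to 4 and 13.8, 13.6, 11.1 and 11.1 CPM in Tsc1-KO 5 to 8. One WT library was inside the Tsc1-KO range, and the edgeR adjusted p was 0.262 (SE 0.17). Eif4e, the main cap-binding protein, had a log2 change of 0.12 (95% interval -0.11 to 0.36), and the helicases Eif4a1 and Eif4a2 had -0.011 and 0.042.

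The inhibitors of eIF4E are direct targets of mTORC1. Eif4ebp1 (chromosome 8, 27260329 to 27276674, plus strand) had 17.5, 18.95, 16.02 and 14.05 CPM in WT 1 to 4 and 19.2, 28.5, 19.01 and 20.7 CPM in Tsc1-KO 5 to 8. All Tsc1-KO libraries were above all WT libraries by a narrow margin, 19.01 against 18.95 CPM, with Tsc1-KO 6 above the rest. The log2 change of 0.39 (SE 0.16) did not pass (edgeR adjusted p = 0.217) and was 0.24 at its lowest when 1 library was left out. Eif4ebp2, 54.2 FPKM in WT against 7.58 FPKM for Eif4ebp1, was the main form in kidney. It had 281, 305, 345 and 322 CPM in WT 1 to 4 and 297, 266, 309 and 319 CPM in Tsc1-KO 5 to 8 (log2 change -0.073, SE 0.11, edgeR adjusted p = 0.805).

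Eif4ebp3 was scarce, at 1.52, 0.814, 0.555 and 1.16 CPM in WT 1 to 4 and 1.37, 0.997, 1.0996 and 1.27 CPM in Tsc1-KO 5 to 8. At 15 to 42 reads a library, a change could not be pinned down (log2 change 0.23, 95% interval -0.55 to 0.998, edgeR adjusted p = 0.820). Its exons share 501 of 744 bases with another annotated gene on the same strand, so its reads are uncertain. Eif4enif1, a transporter of eIF4E that represses its messages, had a log2 change of 0.17 (SE 0.096).

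Eif5a, which eases ribosomes over difficult stretches, stood at 418, 372, 497 and 411 CPM in WT 1 to 4 and at 330, 409, 375 and 319 CPM in Tsc1-KO 5 to 8. The groups overlapped, and the log2 change of -0.25 was the lowest in the set after Eif3j2 (SE 0.13, edgeR adjusted p = 0.357). Its rarer relative Eif5a2 had 0.12, and Eif6, which keeps the ribosomal subunits apart, had -0.17.

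Whether related genes exchanged places was asked with the FPKM ratio within each library for 7 pairs, by an exact two-sided permutation test over the 8 libraries (70 arrangements). The smallest p it can give is 0.0286, and no pair passed after adjustment over the 7. A pair at this smallest p, with its groups fully apart, could pass only if most of the 7 pairs reached it too. The lack of a passing pair was thus largely set by the design, and no conclusion is drawn from it. Eef1a2/Eef1a1 and Eif3j2/Eif3j1 reached that smallest p (adjusted 0.0667), with log2 ratios that differed by 6.97 and -4.61. A WT library with no Eef1a2 read entered with 0.5 of the value of 1 read, so the first difference depends on that setting. Eif4e2/Eif4e reached it too: the ratio of this cap-binding homologue to eIF4E was 0.896, 0.923, 0.910 and 0.845 in WT 1 to 4 and 0.831, 0.837, 0.677 and 0.754 in Tsc1-KO 5 to 8. Every Tsc1-KO ratio was below every WT ratio, a log2 difference of -0.21 (adjusted p = 0.0667, exact).

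The remaining 4 pairs overlapped between the genotypes. The ratio Eif4ebp1/Eif4ebp2 was 0.164, 0.163, 0.122 and 0.115 in WT 1 to 4 and 0.170, 0.282, 0.162 and 0.171 in Tsc1-KO 5 to 8, a log2 difference of 0.45 (exact p = 0.0857, adjusted 0.12). Eif5a2/Eif5a gave 0.37 (exact p = 0.0857, adjusted 0.12). Eif4a2/Eif4a1 gave 0.066 and Eif4g3/Eif4g1 gave -0.042 (adjusted p = 0.686 for both).

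Messages of 9 of the genes are known for a terminal oligopyrimidine (TOP) tract, which places their translation, more than their level, under mTORC1. These were Eef1a1, Eef1b2, Eef1d, Eef1g, Eef2, Eif3e, Eif3f, Eif3h and Eif4b. None of the 9 was called, against 4.67% of all tested genes. The median log2 change of the 9 was -0.076 against 0.0049 for all tested genes, and the 95% interval of each lay within 0.5 of 0. Of 37 other genes of translation in the table (release and recycling factors, poly(A)-binding proteins, S6 kinases and enzymes that make hypusine and diphthamide, among others), none was called, against 4.67% of all tested genes. By unadjusted p none of the 37 was under 0.05, where 12.9% of all tested genes were under it without being called. The changes of the 37 ran from -0.47 (Gspt2) to 0.34 (Ppp1r15a). Gcn1, a partner of GCN2 that the table holds under its older symbol Gcn1l1, was not counted among these 37. It had a log2 change of -0.31 (SE 0.12, edgeR adjusted p = 0.208).

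Among libraries of 1 genotype, the genes of the set shifted unevenly. Of the 67 genes, 43, 23, 34 and 26 lay above their group mean in WT 1 to 4 and 20, 42, 20 and 37 in Tsc1-KO 5 to 8, while 48.7% to 52.0% of all tested genes did. WT 1 and Tsc1-KO 6 thus stood high and Tsc1-KO 5 and Tsc1-KO 7 low. Across the 67 genes the shift correlated with log2 gene length at r = -0.26, -0.0045, 0.10 and 0.18 in WT 1 to 4 and 0.034, -0.19, 0.20 and -0.027 in Tsc1-KO 5 to 8. These values describe genes that share each library and are not independent replicates, and libraries shifted alike (Tsc1-KO 5 and Tsc1-KO 7) differed in r. Median shifts were between -0.065 and 0.095 on the log2 scale.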

How the data were processed

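Poly(A) RNA of whole kidney was sequenced on an Illumina HiSeq system. The submitters' processing notes credit HISAT2 (2.0.4) and HTSeq (0.9.1). Build and strand setting were "not given in the sources used here". Coordinates of 64 of the 67 genes equalled those of the GRCm38 annotation (GENCODE M21), so positions are given as in that build. The authors deposited raw read counts per gene and FPKM, which correct fragment numbers for gene length and depth. The authors' normalized signal (8 columns), group means, fold changes and p-values were not used, nor were the sheets that repeat rows of the full table. Counts were tested in R 4.3.3 with edgeR 4.0.16 (TMM, filterByExpr with minimum count 10, robust quasi-likelihood test, two-sided, Benjamini-Hochberg over 18048 genes), with calls made below an adjusted p of 0.05. CPM are TMM-scaled. The SE equals the log2 change over the root of its F value, and the 95% interval uses the t quantile. Alternatives used DESeq2 1.42.0, limma 3.58.1 on log2(FPKM + 1) or + 0.1, RLE factors, no filter, a Y-linked term, libraries of 1 Y-linked class and each library left out. The pipeline was tested on simulated data. The labels do not state whether the libraries came from separate animals, and p-values therefore reflect library-to-library spread, which may be technical. Counting intervals leave out all but counting error, since reads here carry no molecular identifiers. Full values are given for called genes, the related pairs, the 4E-BP genes, the eIF2 kinases and Eef2k, and within each role the highest and lowest change are named. Eef2, Eif5a, Eif3l, Eif3m, Eif4e3 and other genes named beyond that were chosen after seeing their values. The members and lists were chosen with earlier results of these data known.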

Additional observations from a re-analysis of the deposited data

Results flagged for a closer look

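In groups of 4 libraries, 1 library stood apart from the other 3 in 2 of the 28 groups looked at (14 genes in 2 genotypes), where chance gives about 1 in 20. Eef2k was at 16.7 CPM in Tsc1-KO 6. Eef1a2 was at 0.037 CPM in WT 3, which is a single read against 0 in the other WT libraries. A test of whether the genotype difference depended on the presence of Y-linked reads called 0 of all 18048 genes with edgeR, so its count of 0 among the 67 genes says nothing particular about them. By unadjusted p under 0.05 it gave 0 of the 67. No share of all genes stands beside this 0, so no conclusion is drawn from it.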

How the results depend on the processing

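The call of Eif3j2 was kept in all 16 alternatives and no other gene was called lower in any. The count of 3 higher genes was kept with RLE factors, DESeq2, no low-count filter and the Y-linked term. It was 0 on log2(FPKM + 1), 1 on log2(FPKM + 0.1), 0 in the libraries with Y-linked reads and 1 in those without (2 libraries a genotype), and 0 to 3 with 1 library left out. On log2(FPKM + 1) the adjusted p was 0.109 for Eef1a2, 0.0589 for Eif2ak2 and 0.0539 for Eif3j1. The median log2 change of the set ran from -0.050 to 0.019 over all alternatives. Of 224 values for single genes, 179 kept direction and call, 22 lost the call and 23 turned direction, the latter among changes near 0 apart from Eif3j1 summed with Eif3j2 (-0.037) and Eif2s3y. Eif2s3x was -0.0099 with RLE factors, -0.011 with DESeq2, -0.0079 with no filter, -0.033 and -0.036 on FPKM with offsets of 1 and 0.1, -0.0052 with the Y-linked term and -0.15 in libraries with Y-linked reads. In those libraries Eef1a1 was 0.15 and Eef2k -0.16, and in those without Eif4ebp3 was -0.011. Eef2k was -0.0092 on log2(FPKM + 0.1). With 1 library left out, Eef1a1 ran from -0.085 to 0.041, Eif2s3x from -0.16 to 0.12, Eif2s3y from -0.018 to 1.32, Eif2ak1 from -0.015 to 0.069 and Eef2k from -0.20 to 0.13. The log2 ratio difference ran from -0.043 to 0.14 for Eif4a2/Eif4a1, from -0.16 to 0.041 for Eif4g3/Eif4g1 and from -0.25 to -0.15 for Eif4e2/Eif4e. The cause of these changes was not tested. Eif2s3y was not tested in the libraries without Y-linked reads, as too few reads remained. No paired analysis was possible because the genotypes share no replicate numbers.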
